A study of Mus musculus with 16 samples.

Results

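Mitochondrial ribosomal protein genes were taken as the protein-coding rows of the count table whose symbol begins with *Mrpl* or *Mrps* and a digit, and 78 of the 55416 genes met this rule. They were followed in 16 RNA-seq libraries of erythroblasts, the nucleated precursors of red blood cells, sorted from E13.5 mouse foetal livers. S1 (earlier) and S3 (later) erythroblasts were separated by their surface levels of Ter119 and CD71. The paper assigns S1 to erythroid colony-forming cells (CFU-E) and S3 to basophilic erythroblasts, with S4 and S5 as later stages. Each of 8 embryos gave 1 library per stage, and the embryos were 4 wild-type (WT; numbers 0, 1, 5 and 8), 2 heterozygous (Het; 3 and 4) and 2 homozygous (KO; 2 and 9) for a constitutive deletion of the *Nprl3* promoter region. The deletion was carried by every cell of the embryo and spared the α-globin enhancers that lie inside *Nprl3*. NPRL3 is a subunit of GATOR1, a complex that restrains the growth kinase mTORC1. Small numbers of sorted cells were used and the RNA was amplified before sequencing. The sample records also name an embryonic stem cell line as the source, whereas their titles and the study's methods give sorted foetal liver cells.

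Mitochondria carry their own ribosomes, which translate the few messenger RNAs encoded by mitochondrial DNA into core subunits of the respiratory chain. All of the proteins of these ribosomes are encoded in the nucleus, made in the cytosol and imported. Some have a counterpart in bacterial ribosomes and are called conserved here, and others arose in mitochondria and are called mitochondria-specific. Erythroblasts need mitochondria for haem synthesis and clear them at the end of maturation.

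Of the 78 genes, 51 encoded proteins of the large subunit, which makes the peptide bond, and 26 encoded proteins of the small subunit, which reads the messenger RNA. *Mrps18a* and *Mrps30* were counted with the large subunit, where their proteins lie despite their names. *Mrps36* was placed in neither, since its product belongs to the α-ketoglutarate dehydrogenase complex. The genes lay on 17 chromosomes. Exons of another gene overlapped those of 48 of them, on the opposite strand only for 40 and with a same-strand gene for 8, and the counting used no strand. *Mrpl53* had a count of 0 in every library. Its exons are overlapped by *Ccdc142os* on the opposite strand, and reads shared by both genes were not counted, so that this 0 is not a measure of its expression. The other 77 genes passed the filter on low counts in every comparison, and their counts ran from 36 to 18612 per library.

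Promoters were described from the RefSeq table of build GRCm38.p6, as 300 bases from 250 before to 50 after each annotated start, read in the direction of the gene. The table held 75 promoters of 69 of the 78 genes and 32851 promoters in all. Motifs were searched on both strands. The motif of nuclear respiratory factor 1 (NRF1), a regulator of nuclear genes for mitochondria, is GCGCA, any base and GCGC. It was found in 17.3% of the promoters of these genes and in 4.6% of all promoters. CCGGAAG, bound by ETS factors such as GABP, was found in 34.7% and 8.86%. The shares for AANATGG, bound by YY1, were 30.7% and 16.1%, and those for the GC box GGGCGG, bound by SP and KLF factors, were 52% and 35.7%. CACGTG, the E-box bound by MYC and others, was found in 9.33% and 7.15%. Shares are per promoter, so that a gene with several annotated starts counts more than once. Among the 7 promoters of these genes with an E-box are overlapping windows of *Mrpl2* that hold the same site. The median GC content was 58.7% for these genes and 52.7% for all promoters, so that motifs rich in G and C have more chances to match. The NRF1 motif was found in 6 of 28 promoters of genes that were lower at S3 in the comparison of stages given further on, in 2 of 4 of genes that were higher and in 5 of 42 of genes not called.

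The sequences here are those of genes on which the comparison of stages turns, with the motif in capitals and positions counted from the annotated start. The 250 bases before the start of *Mrps6* (chr16:92058086-92058335, plus strand) held 4 GC boxes, at −114, −109, −95 and −79, and the first of these overlaps the second. Those of *Mrpl45* (chr11:97315466-97315715, plus strand) held the NRF1 motif at −120 and −38.
Mrps6: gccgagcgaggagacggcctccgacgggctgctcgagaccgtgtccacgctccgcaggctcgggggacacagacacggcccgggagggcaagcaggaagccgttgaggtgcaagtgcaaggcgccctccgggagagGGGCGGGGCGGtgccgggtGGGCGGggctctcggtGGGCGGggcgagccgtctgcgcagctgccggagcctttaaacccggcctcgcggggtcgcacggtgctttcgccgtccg
Mrpl45: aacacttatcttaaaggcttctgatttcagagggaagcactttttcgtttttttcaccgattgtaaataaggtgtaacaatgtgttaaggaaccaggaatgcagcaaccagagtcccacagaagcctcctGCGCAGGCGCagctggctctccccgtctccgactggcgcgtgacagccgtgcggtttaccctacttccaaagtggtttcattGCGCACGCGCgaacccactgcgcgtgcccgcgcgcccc
Short windows of 30 bases show the NRF1 motif of *Mrpl12* (at −81, chr11:120484546-120484575, plus strand) and of *Mrps21* (at −91, chr3:95871586-95871615, minus strand), both as the reverse complement. Others show the ETS motif of *Mrps27* (at −48, chr13:99344727-99344756, plus strand, reverse complement) and the E-box of *Mrps18c* (at −163, chr5:100798584-100798613, plus strand). The *Mrps18c* window also holds the ETS motif as the reverse complement (at −156), left in lower case.
Mrpl12: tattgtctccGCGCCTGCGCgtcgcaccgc
Mrps21: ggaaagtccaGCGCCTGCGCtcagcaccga
Mrps27: tggtaggaccaCTTCCGGcggaggcgggct
Mrps18c: gcagccccgggtCACGTGacttccggcccg
A match to letters describes the sequence and does not show that a factor binds there.

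Total counts were 23331156 to 36035368 per S1 library and 20666044 to 37609502 per S3 library. Counts were scaled by TMM, which assumes that most genes do not change, and the levels are given in CPM, the count as a share of the scaled library size. The scaling factors were 1.29 to 1.51 at S1 and 0.691 to 0.813 at S3. *Nprl3* had 22.6 to 32.6 CPM in the WT libraries at S1 and 0.319 and 0.676 CPM in the KO libraries. At S3 it had 146 to 204 CPM in WT and 107 and 111 CPM in KO, so that at this stage the deletion left most of the reads counted for the gene. The paper describes polyadenylated transcripts of *Nprl3* that start at the α-globin enhancers and code for no protein. Its droplet PCR assay for mRNA from the promoter detected none in KO cells. The counts here do not separate such transcripts from mRNA of the promoter. The late erythroid markers rose from S1 to S3 in WT for 8 of 8 genes and the early markers fell for 6 of 6. The S1 libraries of WT embryos 0 and 8 stood apart. Globins took 1.07% and 1.00% of their counts, against 0.0738 to 0.306% in the other S1 libraries. Their hepatoblast markers summed to 385 and 357 CPM, against 30.1 to 190 CPM in the others. The neutrophil precursor markers summed to 204 and 117 CPM, against 1153 to 1700 CPM. Results that rest on these 2 embryos are given with and without them.

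Together the 78 genes took 1.22, 1.42, 1.28 and 0.822% of the counts in the S1 libraries of WT embryos 0, 1, 5 and 8, and 0.399, 0.580, 0.50 and 0.361% in the S3 libraries of the same embryos. Every S3 library was below every S1 library. Globins took 10.0 to 11.9% of the counts at S3, and a share of counts falls when others grow. Of the counts other than those of globins, these genes took 0.830 to 1.42% in WT at S1 and 0.409 to 0.653% at S3. On the TMM scale, the summed level was 8644 ± 2263 CPM at S1 and 6473 ± 1553 CPM at S3 (SD, n = 4), a ratio of 0.749. In bulk samples, a lower level cannot be told apart as less RNA per cell or as fewer cells that express the gene. The summed level of the large subunit divided by that of the small subunit, per kilobase of exon, was 2.59 to 2.71 over the 8 libraries of S1 and 2.17 to 2.44 over those of S3. These ranges did not overlap. Such sums are led by the genes of high level. Per kilobase, *Mrpl12* had 218 and 45.8 CPM in WT at S1 and S3, and *Mrps21* had 117 and 199 CPM. As mean shares of counts in WT, the large subunit went from 0.836 to 0.329% and the small from 0.340 to 0.125%. The median log2 fold change over genes in WT, given below, was −0.30 for the large subunit and −0.54 for the small. Markers of other cells moved between the stages in WT as well. Neutrophil markers summed to 117 to 1377 CPM at S1 and 1.11 to 4.77 CPM at S3, with 9 of 9 tested lower. Macrophage markers summed to 32.2 to 57.9 CPM at S1 and 45.9 to 100 CPM at S3, with 9 of 13 higher. Hepatoblast markers summed to 69.0 to 385 CPM and 225 to 991 CPM, with 4 of 14 higher. Primitive erythroid markers summed to 3.67 to 84.3 CPM at S1 and 2150.96 to 4462.5 CPM at S3, with 3 of 3 higher. With total count scaling, 0 macrophage markers were higher and 3 lower, and 0 hepatoblast markers were called in either direction. The 3 primitive erythroid markers were higher on that scale too. The part of these other cells was not separated from that of the sorted erythroblasts. The part of all these markers in the changes of the ribosomal genes was not tested.

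Levels were compared between genes per kilobase of exon (RPKM on the TMM scale). In WT S1 erythroblasts they ran from 8.95 to 218 RPKM with a median of 38.2 over 77 genes. *Mrpl12*, which encodes the protein of the large subunit's stalk that contacts translation factors, was the highest at 218 ± 70.2 RPKM (SD, n = 4). *Mrpl36* followed at 187 ± 56.9 RPKM and *Mrpl18* at 187 ± 51.5 RPKM, then *Mrpl34* and *Mrpl28*. The lowest were *Mrpl33* at 8.95 ± 3.20 RPKM and *Mrps34* at 9.16 ± 3.03 RPKM, then *Mrpl48*, *Mrps35* and *Mrps9*. All of these are structural components of the ribosome. Exon lengths in the table join every annotated transcript, so that a gene with a long rare transcript is set too low.

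At S3 the order changed at both ends. *Mrps21*, the counterpart of bacterial S21, was the highest at 199 ± 62.3 RPKM, followed by *Mrpl28* at 193 ± 38.7 RPKM and *Mrpl18* at 160 ± 38.7 RPKM, then *Mrps28* and *Mrps18c*. *Mrps35* was the lowest at 2.46 ± 0.804 RPKM and *Mrps6* came next at 2.88 ± 0.997 RPKM, then *Mrpl19*, *Mrps27* and *Mrpl47*. The highest level was 24.4 times the lowest at S1 and 81.0 times at S3. At either stage, each of the 76 pairs of neighbours in this order overlapped between the 4 libraries, so the order is coarse. The coefficient of variation of a gene over the 4 embryos had a median of 28.8% at S1 and 24.6% at S3.

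Between S1 and S3 in WT embryos, 29 of the 77 genes fell, 5 rose and 43 were not called (quasi-likelihood test in edgeR, Benjamini-Hochberg adjusted over 13514 genes, threshold 0.05). The calls were 37.7% lower and 6.49% higher, against 35% lower and 30.6% higher among all genes tested. In this fit the share of lower calls was near the background and that of higher calls was below it. In a fit that paired the stages by embryo, 40 genes fell and 7 rose, against 36.3% lower and 33.3% higher among all genes. With upper-quartile scaling, 41 fell and 1 rose, against 39.2% and 26.6%. The median log2 fold change of S3 over S1 was −0.46 for these genes and −0.08 for all genes. The S3 libraries all lay below the S1 libraries for 24 genes (background 32.8%) and all above for 2 genes (background 27.6%). These counts rest on the TMM scale. Scaling by total counts moved the median of all genes by −1.02 and gave 73 lower and 0 higher calls, against 63.1% lower and 13.8% higher among all genes. Relative to the median of all genes, the median of these genes was −0.37 on the TMM scale and −0.36 on the total count scale. Without WT embryos 0 and 8, 40 genes fell and 8 rose, against 33.5% lower and 28.9% higher among all genes.

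**Figure D1:**
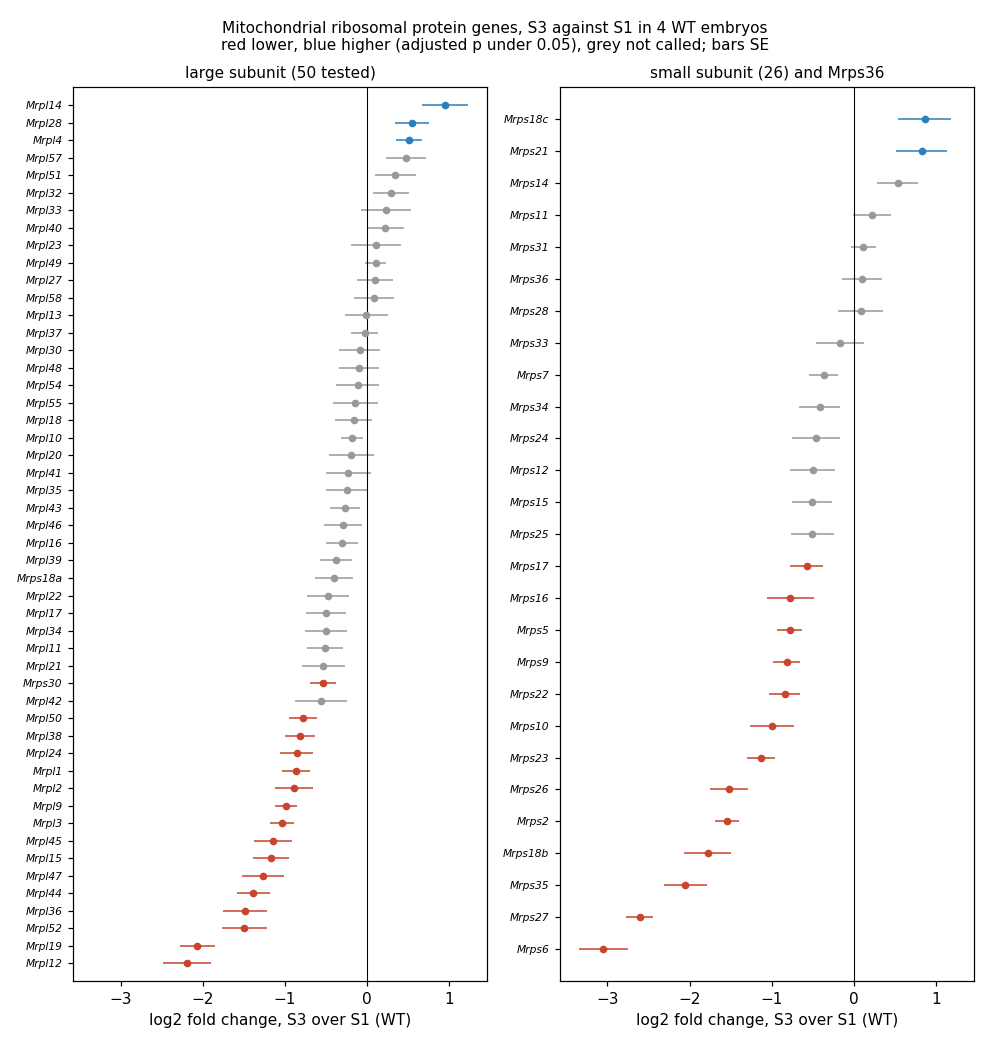
Log2 fold change of S3 over S1 in WT embryos (x axis) for each tested gene (y axis), with the standard error as a bar, for the large subunit (50 genes), and the small subunit (26 genes) with *Mrps36*. The changes run from −3.05 for *Mrps6* to 0.95 for *Mrpl14* on the TMM scale, and with total count scaling none of the higher calls remains.

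The largest falls, of *Mrps6* and *Mrps27*, were in the small subunit. *Mrps6*, the counterpart of bacterial S6, had 37.6, 48.7, 43.9 and 23.2 CPM in the S1 libraries of embryos 0, 1, 5 and 8, and 4.14, 6.12, 4.94 and 2.48 CPM at S3. All S3 libraries lay below all S1 libraries, and the log2 fold change was −3.05 ± 0.30 (SE; edgeR adjusted p = 9.95e-06). Its exons overlap *Slc5a3*, a transporter gene on the same strand, and shared reads were not counted. *Mrps27*, which encodes a mitochondria-specific protein with pentatricopeptide repeats, had 60.8, 69.4, 67.7 and 53.8 CPM at S1 and 8.58, 12.2, 10.6 and 8.20 CPM at S3. It fell by 2.61 ± 0.17 on the log2 scale (SE; edgeR adjusted p = 8.17e-07), with no overlap between stages. *Mrps35*, mitochondria-specific, had 92.2, 113, 105 and 56.1 CPM at S1 and 18.4, 30.5, 22.0 and 14.1 CPM at S3 (log2 fold change −2.05 ± 0.26, edgeR adjusted p = 6.68e-05).

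*Mrps2* and *Mrps26* fell less. *Mrps2*, the counterpart of bacterial S2, had 104, 91.7, 109 and 108 CPM at S1 and 33.5, 41.4, 34.6 and 26.5 CPM at S3, a log2 fold change of −1.54 ± 0.15 (edgeR adjusted p = 9.19e-06). Embryo 8 was not low at S1 for this gene, unlike for most of the others. *Mrps26*, mitochondria-specific, had 136, 163, 142 and 79.9 CPM at S1 and 36.0, 56.5, 48.8 and 33.2 CPM at S3, a log2 fold change of −1.52 ± 0.23 (edgeR adjusted p = 0.000226). Over the 26 genes of the small subunit, 13 fell and 2 rose, with a median of −0.54, against 35% lower, 30.6% higher and a median of −0.08 for all genes.

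In the large subunit, 16 of 50 genes fell and 3 rose, with a median of −0.30, against the same 35% lower, 30.6% higher and median of −0.08 for all genes. With total count scaling, 49 of the 50 fell and 0 rose, with a median of −1.31. In the small subunit, 23 of 26 then fell and 0 rose, with a median of −1.55. Among all genes, 63.1% were then lower and 13.8% higher, with a median of −1.10. *Mrpl12*, of the stalk, had 348, 448, 352 and 189 CPM at S1 and 60.1, 101, 75.5 and 44.3 CPM at S3, a log2 fold change of −2.19 ± 0.29 (edgeR adjusted p = 8.32e-05). *Mrpl19*, the counterpart of bacterial L19, had 104, 140, 118 and 82.3 CPM at S1 and 22.4, 34.8, 24.9 and 19.8 CPM at S3, a log2 fold change of −2.06 ± 0.21 (edgeR adjusted p = 1.25e-05). *Mrpl45*, which tethers the peptide exit of the ribosome to the inner membrane, had 124, 151, 129 and 86.5 CPM at S1 and 41.4, 74.9, 58.7 and 37.8 CPM at S3. It fell by 1.15 ± 0.23 on the log2 scale (SE; edgeR adjusted p = 0.00129). For each of these 3 genes, the highest S3 library was below the lowest S1 library. *Mrpl58* encodes a peptide release factor that became part of the large subunit, and was at 45.4, 62.1, 48.7 and 27.4 CPM at S1 and 39.9, 62.1, 48.6 and 36.2 CPM at S3. The stages overlapped, with a log2 fold change of 0.08 ± 0.24 that is negative with upper-quartile and total count scaling.

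Rises were smaller, and their direction depends on the scaling. *Mrpl14*, the counterpart of bacterial L14 at the face that meets the small subunit, had 57.8, 69.5, 65.1 and 29.7 CPM at S1 and 72.6, 127, 132 and 79.9 CPM at S3. Its log2 fold change was 0.95 ± 0.28 (edgeR adjusted p = 0.0115) and −0.059 with total count scaling. *Mrpl4*, the counterpart of bacterial L4, had 97.6, 101, 103 and 68.1 CPM at S1 and 113, 138, 138 and 114 CPM at S3, a log2 fold change of 0.51 ± 0.15 (edgeR adjusted p = 0.0144) that was −0.51 with total count scaling. These were the 2 genes whose S3 libraries all lay above the S1 libraries. The exons of both are overlapped on the opposite strand, by *Tmem63b* and *S1pr2*. *Mrps18c*, *Mrps21* and *Mrpl28* also passed the test, with log2 fold changes of 0.86 ± 0.32, 0.82 ± 0.31 and 0.55 ± 0.21 (edgeR adjusted p = 0.0348, 0.0388 and 0.0419) that were −0.14, −0.18 and −0.46 with total count scaling. The stages overlapped for these 3 genes, with embryo 8 the lowest at S1. The last 2 were named after their values were seen. With upper-quartile scaling, *Mrpl14* alone of these 5 genes was called (0.77, edgeR adjusted p = 0.0316), and the adjusted p of the other 4 ran from 0.0835 to 0.154. Without WT embryo 5, 1 gene was called higher, without embryo 0, 2 genes were, and without embryo 1, 3 were, against 25.3%, 25.8% and 29.4% of all genes.

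The 3 genes of the S18 family differed in their values. *Mrps18b* had 84.3, 90.4, 94.4 and 54.6 CPM at S1 and 17.7, 32.9, 27.6 and 12.5 CPM at S3, and fell by 1.78 ± 0.28 on the log2 scale (SE; edgeR adjusted p = 0.000288). *Mrps18c* had 72.2, 97.4, 79.7 and 30.8 CPM at S1 and 89.3, 159, 148 and 92.6 CPM at S3, and its rise, which was −0.14 with total count scaling, is given above. *Mrps18a*, of the large subunit, had 117, 152, 132 and 70.4 CPM at S1 and 69.7, 112, 89.3 and 69.8 CPM at S3, with a log2 fold change of −0.41 ± 0.23 (edgeR adjusted p = 0.146). It was called lower in a fit that paired the stages by embryo (−0.38, edgeR adjusted p = 0.0457). The differences between these genes were not tested.

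**Figure D2:**
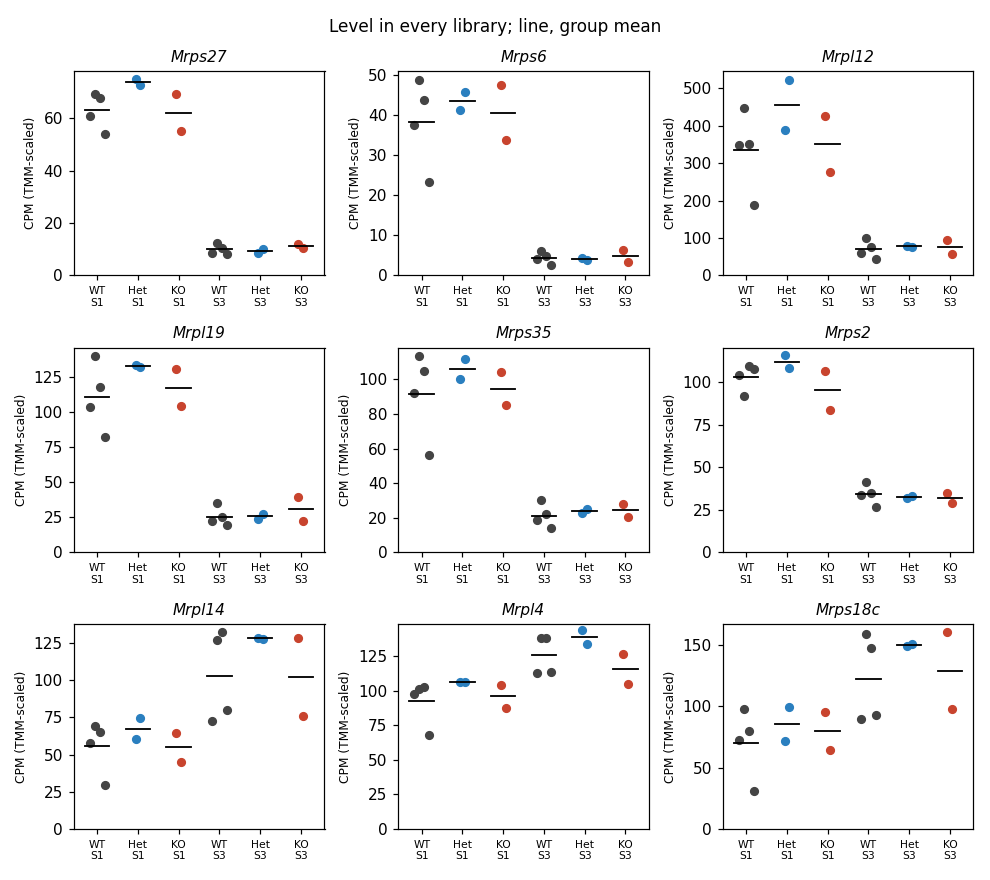
Level in CPM on the TMM scale (y axis, from 0) of 9 of the genes in each of the 16 libraries, by genotype and stage (x axis), with a line at each group mean. *Mrps27* has 53.8 to 69.4 CPM in WT at S1 and 8.20 to 12.2 CPM at S3, and *Mrpl14* has 29.7 to 69.5 and 72.6 to 132 CPM, a rise that is −0.059 on the log2 scale with total count scaling.

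The background for the following counts is 35% lower and 30.6% higher with a median of −0.08, as given above for all genes. With total count scaling it is 63.1% lower and 13.8% higher with a median of −1.10. Of 48 conserved genes, 18 fell and 5 rose, with a median of −0.49, and of 28 mitochondria-specific genes, 11 fell and 0 rose, with a median of −0.40. In the 30 genes that no other gene overlaps, 14 fell and 1 rose, with a median of −0.54, and in the 47 tested genes with an overlap, 15 fell and 4 rose, with a median of −0.31. Across the 77 genes, the change at S3 had a Spearman correlation of −0.18 with exon length and of 0.17 with the WT S1 level. The same correlations over all 13514 genes were −0.09 and −0.04. They are given as a description, since the genes share the same 8 libraries. *Mrpl46* and *Mrps11*, singled out after their values were seen because they lie head to head, had log2 fold changes of −0.30 and 0.22, and neither was called.

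Other genes of the same pathway were described in lists chosen with earlier results of these data known. Of 5 ribosomal proteins with other names, 1 fell and 0 rose, with a median of −0.08. *Ptcd3*, a small subunit protein with pentatricopeptide repeats like *Mrps27*, fell by 1.38 on the log2 scale, and *Dap3*, a GTP-binding protein of the small subunit, was at −0.08. Of 24 factors that assemble the ribosome, 15 fell and 2 rose, with a median of −0.80. *Noa1* and *Gtpbp10*, which encode GTPases, and *Rpusd4*, a pseudouridine synthase of the ribosomal RNA, had log2 fold changes of −2.06, −1.95 and −1.91. Of 13 translation factors, 8 fell and 1 rose, with a median of −0.73. *Tufm*, the elongation factor that brings aminoacyl-tRNA, had 237 to 317 CPM at S1 and 69.5 to 108 CPM at S3 in WT, a log2 fold change of −1.63. *Oxa1l*, which inserts new proteins into the inner membrane, was at −1.5.

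Of 21 genes for the copying, transcription and RNA processing of mitochondrial DNA, 14 fell and 1 rose, with a median of −1.14. *Tfam*, which packages mitochondrial DNA and starts its transcription, had a log2 fold change of −1.63, *Tfb2m*, its partner at the promoter, of −2.08 and *Prorp*, which cuts tRNAs from the primary transcript, of −2.49. Of 20 genes of the import channels, 13 fell and 1 rose, with a median of −0.80, among them *Tomm40*, the channel of the outer membrane, at −2.11. Of 12 tested mRNAs encoded by mitochondrial DNA, 5 rose and 0 fell, with a median of 0.49. Total count scaling gave 1 higher, 6 lower and a median of −0.52, against −1.10 for all genes on that scale. *mt-Co1*, the core subunit of cytochrome c oxidase, had 347 to 637 CPM at S1 and 1483 to 1931 CPM at S3 in WT, a log2 fold change of 1.82 ± 0.20 (edgeR adjusted p = 2.29e-05) that was 0.81 with total count scaling. Near-identical copies of these mRNAs in the nuclear genome make their counts uncertain, since reads that mapped to several places were left out.

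Of 37 nuclear genes for subunits of respiratory complex I, which contains products of the mitochondrial ribosome, 18 rose and 1 fell, with a median of 0.68. Total count scaling gave 1 higher, 14 lower and a median of −0.33. On that scale all genes were 13.8% higher and 63.1% lower with a median of −1.10. *Ndufv1*, which binds the flavin cofactor, had a log2 fold change of 1.21 and *Ndufb11* of 1.64, or 0.18 and 0.63 with total count scaling. Of 79 genes for cytosolic ribosomal proteins, 2 rose and 6 fell, with a median of −0.19. Total count scaling gave 0 higher, 76 lower and a median of −1.20, against −1.10 for all genes. Of 13 regulators of mitochondrial genes, 5 fell and 2 rose, or 9 and 1 with total count scaling. On that scale 22 of the 24 assembly factors and 13 of the 13 translation factors fell. So did 20 of the 21 genes for mitochondrial DNA and 18 of the 20 import genes, and 0 rose in these 4 lists. *Myc*, whose product binds E-boxes, had 259 to 344 CPM at S1 and 14.8 to 29.9 CPM at S3 in WT, a log2 fold change of −3.62 ± 0.22 (edgeR adjusted p = 5.91e-07). *Nrf1*, which encodes the factor of the NRF1 motif, had 70.5 to 95.7 CPM at S1 and 184 to 223 CPM at S3 and had a log2 fold change of 1.44, or 0.40 with total count scaling.

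**Figure D3:**
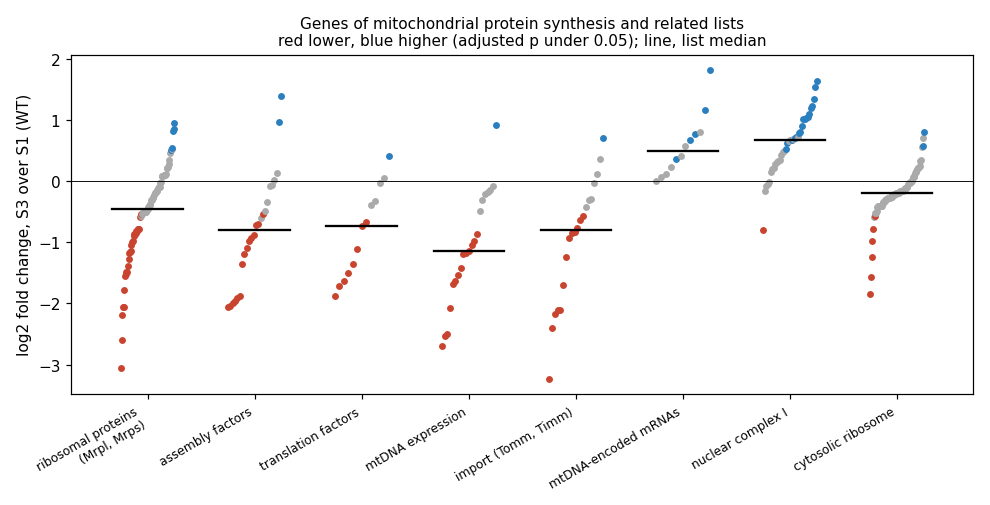
Log2 fold change of S3 over S1 in WT embryos (axis of values, TMM scale) of every tested gene of each list, with the list median marked. The mitochondrial ribosomal protein genes have a median of −0.46, complex I subunits 0.68 and genes of mitochondrial DNA expression −1.14, and with total count scaling these are −1.46, −0.33 and −2.18. All genes tested have a median of −0.08, and of −1.10 with total count scaling.

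The same change of stage was measured in the other genotypes. In KO embryos, 25 genes fell and 1 rose (edgeR, background 27.9% lower and 25% higher), with a median of −0.36 against −0.07 for all genes. The S3 libraries lay apart below S1 for 40 genes and above for 4, against 43.8% and 33.9% of all genes. In Het embryos, 28 fell and 3 rose (background 32.2% and 28.6%), with a median of −0.49 against −0.05. They lay apart below for 59 genes and above for 9, against 48% and 39.1%. Each of these fits took part of its estimate of spread from the WT libraries. All 25 genes that fell in KO were among the 29 that fell in WT (100% and 86.2%). Over all genes, 3590 fell in both, or 95.3% of the KO calls and 75.9% of the WT calls. Of the 28 that fell in Het, 27 were shared with WT (96.4% and 93.1%), against 95% and 86.5% over all genes. *Mrpl14* rose in all 3 genotypes, with log2 fold changes of 0.99 in KO and 1.04 in Het, under TMM scaling and not under total count scaling, which gave 0 rises in each. In KO this call was also lost with upper-quartile scaling, with the filter of filterByExpr, and when WT embryo 0, 1 or 5 or either KO embryo was left out, each of which gave 0 rises. In Het the call was lost when either Het embryo was left out, again with 0 rises. The higher calls among all genes were 16.1 to 25.7% in these KO fits that left out an embryo, and 18.1% and 19.1% in the Het fits. *Mrps6* had −2.96 in KO and −3.31 in Het, *Mrps27* −2.39 and −2.88, and *Mrpl12* −2.11 and −2.45. Without KO embryo 9, 10 genes fell in KO, and without KO embryo 2, 11 did, while the lower calls among all genes went from 27.9% to 18.1% and 16.8%. In Het, 15 fell without embryo 4, against 21.6% of all genes, and 35 fell and 7 rose without WT embryo 8, against 34% and 32.2%.

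With the embryo as a block, which pairs the stages, 33 genes fell and 5 rose in KO, against 30.5% lower and 27.8% higher among all genes. In Het, 37 fell and 5 rose, against 34.1% and 30.7%. Leaving out WT embryos 0 and 8 gave 29 lower and 3 higher calls in KO, against 30.4% and 27.2% of all genes, and 43 and 8 in Het, against 36.6% and 33.1%.

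Whether loss of *Nprl3* changed these genes was addressed within each stage. At S1, none of the 77 genes was called between KO and WT, and none had an unadjusted p under 0.05 (edgeR over 14039 genes, smallest unadjusted p = 0.374), nor was any called by DESeq2. In edgeR, the background was 0% higher and 0.00712% lower, and 1.87% higher and 0.662% lower at the unadjusted p. The median log2 fold change of KO over WT was 0.07, with a range of −0.26 to 0.21 and a median standard error of 0.28. Of the 77 genes, 64 lay above 0, against 48.9% of all genes. *Mrpl52* was the lowest, at −0.26 ± 0.33, and *Mrpl44*, near the nascent peptide's exit, was at 0.20. *Mrpl12* had 426 and 275 CPM in the KO libraries of embryos 2 and 9, within the 189 to 448 CPM of WT. Macrophage markers at S1 summed to 71.2 and 72.0 CPM in KO against 32.2 to 57.9 CPM in WT, and neutrophil markers to 1622 and 1700 CPM against 117 to 1377 CPM. Neither sum overlapped between the groups, and their part in the values of the ribosomal genes was not tested. In no gene did both KO libraries lie beyond all WT libraries (background 6.17% above and 3.75% below).

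The direction at S1 rested on single libraries. In WT embryo 8, 76 of 77 genes lay below the WT mean at S1, with a median deviation of −0.67 on the log2 scale. Cytosolic ribosomal protein genes, 78 of 79 below with a median of −0.76, and complex I genes, 36 of 37 below with a median of −0.83, were low in the same library, while all genes had a median of −0.03. In the KO libraries the median deviation was 0.30 for embryo 2 and −0.10 for embryo 9. Without WT embryo 8, the median of KO over WT was −0.07 and 9 genes lay above 0. Without KO embryo 2 it was −0.13 with 8 above 0, and without KO embryo 9 it was 0.24 with 74 above 0. Without WT embryos 0 and 8 it was −0.13 with 4 above 0. The hepatoblast and globin values of embryo 8 are given above, and their part in these differences was not tested.

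**Figure D4:**
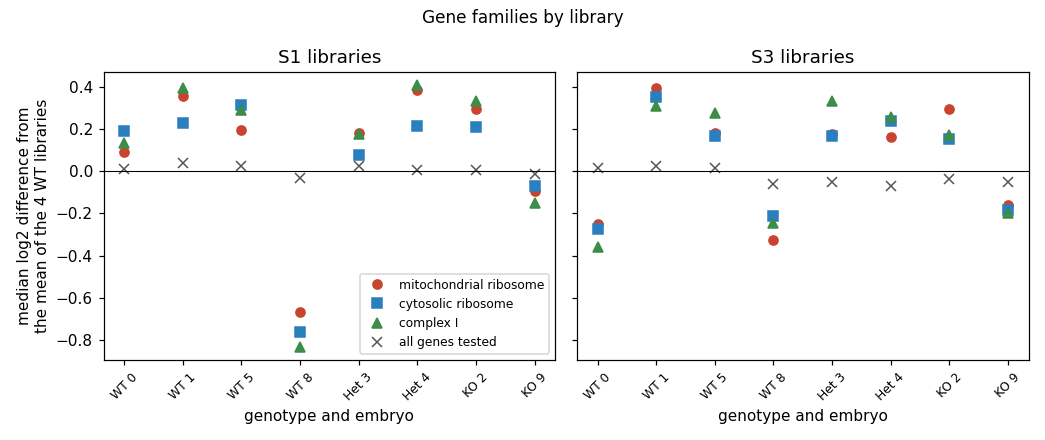
Median deviation of each library from the WT mean of its stage (log2 CPM, with 0.5 CPM added), for 4 gene sets. WT embryo 8 at S1 is at −0.67 for the mitochondrial ribosomal protein genes, −0.76 for cytosolic ribosomal protein genes and −0.83 for complex I genes.

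At S3, none of the 77 genes was called between KO and WT, and none had an unadjusted p under 0.05 (edgeR over 11804 genes, smallest unadjusted p = 0.118), with 0 calls by DESeq2. The background was 0.457% higher and 0.102% lower, and 4.21% and 4.31% at the unadjusted p. The median log2 fold change was 0.12, with a range of −0.22 to 0.46, against 0.01 for all genes, and 65 genes lay above 0, against 51% of all genes. *Mrpl34*, a large subunit protein, had 53.2, 82.9, 75.3 and 49.97 CPM in WT embryos 0, 1, 5 and 8, and 87.6 and 73.5 CPM in KO embryos 2 and 9. The log2 fold change was 0.36 ± 0.21 and KO embryo 9 lay within the WT range. *Mrpl45*, the membrane tether, had 41.4, 74.9, 58.7 and 37.8 CPM in WT, and 86.3 and 52.0 CPM in KO, a log2 fold change of 0.44 ± 0.29. *Mrps18b* had a log2 fold change of 0.46 ± 0.37, with 39.6 and 20.1 CPM in KO. At the other end, *Mrpl42*, mitochondria-specific, had 146, 293, 245 and 151 CPM in WT and 205 and 137 CPM in KO, a log2 fold change of −0.22 ± 0.29. No gene had both KO libraries beyond all WT libraries (background 6.57% above and 12.1% below).

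With sex as a covariate, edgeR called *Mrpl45* higher in KO at S3 (log2 fold change 0.44, adjusted p = 0.0395). DESeq2 with the same covariate called *Mrpl45* (0.43, adjusted p = 0.0192), *Mrpl34* (0.38, adjusted p = 0.0342) and *Mrpl30* (0.31, adjusted p = 0.0496). Over all genes, these fits called 285 genes higher and 262 lower in edgeR and 308 and 422 in DESeq2, so that the whole table gained calls with this covariate. Each sex had 1 KO embryo. In WT the male embryos are 0 and 8, the pair that stands apart in the S1 markers, so that the sex term and that split cannot be told apart within WT. The direction again rested on the libraries. The median was −0.12 with 19 genes above 0 without KO embryo 2, and 0.31 with 76 above 0 without KO embryo 9. Without WT embryos 0 and 8 it was −0.10 with 20 above 0. Macrophage markers moved with genotype at S3. They summed to 83.3, 83.0, 100 and 45.9 CPM in WT embryos 0, 1, 5 and 8 and to 36.4 and 23.3 CPM in KO embryos 2 and 9, with 2 of 13 tested called lower and all 13 below 0. Late erythroid markers summed to 110703 to 130129 CPM in WT and to 93730 and 97007 CPM in KO, which did not overlap, with 0 of 8 called and all 8 below 0. Globins took 10.8 to 11.8% of the counts in WT and 10.0 and 10.6% in KO, again without overlap. The part of these markers in the values of the ribosomal genes was not tested.

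**Figure D5:**
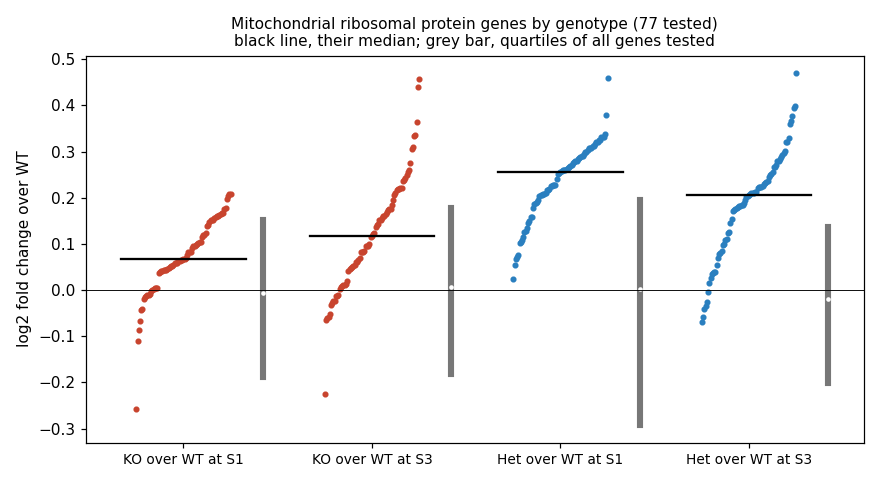
Log2 fold change of KO over WT and of Het over WT at each stage, 1 point per tested gene (77), with a grey bar for the quartiles of all genes. The medians are 0.07 and 0.12 for KO at S1 and S3 and 0.26 and 0.21 for Het, and no gene passed the test in any of the 4 comparisons.

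The Het embryos, both male, were compared with WT in the same way. At S1, all 77 genes lay above 0 in Het over WT, against 50.3% of all genes, with a median of 0.26, and none was called or had an unadjusted p under 0.05 (edgeR over 13818 genes, smallest unadjusted p = 0.159, and 0 calls by DESeq2). The background was 0%, and 0.289% higher and 3.97% lower at the unadjusted p. Both Het libraries lay above all WT libraries for 6 genes, or 7.79%, against 8.68% of all genes, and below for 0, against 9.3%. Among these, *Mrps18b* had a log2 fold change of 0.33 and *Mrpl10*, which holds the stalk to the ribosome, of 0.24. *Mrpl12* had 389 and 523 CPM in Het embryos 3 and 4, against 189 to 448 CPM in WT. Neutrophil markers at S1 summed to 1570 and 1563 CPM in Het and to 117 to 1377 CPM in WT, and hepatoblast markers to 48.2 and 30.1 CPM against 69.0 to 385 CPM. Megakaryocyte markers summed to 31.1 and 26.7 CPM against 42.6 to 76.9 CPM, and late erythroid markers to 651 and 798 CPM against 1011 to 4612 CPM. None of these 4 sums overlapped between the groups, and their part in the values of the ribosomal genes was not tested. WT embryos 0 and 8 are the male WT embryos, so that without them genotype and sex cannot be told apart at either stage. Without WT embryo 8 the median was 0.06 with 61 genes above 0, and without WT embryos 0 and 8 it was 0.01 with 45 above 0. At S3 the median was 0.21 with 71 above 0, against 46.8% of all genes, and again none was called or had an unadjusted p under 0.05 (edgeR over 11746 genes, smallest unadjusted p = 0.0722, and 0 calls by DESeq2). The background was 0%, and 0.8% higher and 2.38% lower at the unadjusted p. The groups did not separate for any gene, against 2.39% above and 12.5% below among all genes. *Mrps21* was at 0.47 ± 0.23 and *Mrpl52* at 0.39, and *Mrps6* at −0.07. Hepatoblast markers at S3 summed to 155 and 206 CPM in Het and to 225 to 991 CPM in WT, and megakaryocyte markers to 57.3 and 55.7 CPM against 59.1 to 105 CPM. Neither sum overlapped between the groups, and their part in these values was not tested. Without WT embryos 0 and 8 the median was −0.04 with 25 above 0. The KO and Het comparisons share the WT libraries.

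Whether the change from S1 to S3 differed between genotypes was tested by an interaction of genotype and stage. None of the 77 genes was called for KO (edgeR over 13485 genes, background 0.00742% higher and 0% lower) or for Het (13364 genes, background 0%), and none had an unadjusted p under 0.05 in either, against 1.45% higher and 1.67% lower for KO and 1.37% and 1.43% for Het among all genes. The smallest unadjusted p was 0.398 for KO and 0.132 for Het, the latter in *Mrpl10* at −0.31 ± 0.19. DESeq2 made 0 calls in both. The median difference in log2 fold change was 0.04 for KO, with 49 genes above 0 against 55.3% of all genes, and −0.05 for Het, with 22 above 0 against 49.4%. Leaving out single embryos could turn the sign of both medians. The KO median ran from −0.04 to 0.10, with 30 genes above 0 without WT embryo 0 and 62 without WT embryo 8. The Het median ran from −0.14 to 0.04, with 4 above 0 without WT embryo 0, 5 without Het embryo 3, 47 without WT embryo 8 and 51 without Het embryo 4. The median standard error was 0.39 for KO and 0.38 for Het. *Mrps18b* and *Mrpl52* had the differences 0.39 and 0.35 for KO, and *Mrpl42* −0.24.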

How the data were processed

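RNA-seq was analysed for S1 and S3 erythroblasts of 8 embryos. Groups, embryo numbers and sex came from the sample labels and the study's methods. The authors mapped reads to mm39 with STAR 2.7.9 and counted read pairs per gene with featureCounts 1.6.4 on the Ensembl annotation, versions that the submitters' processing notes give, and deposited raw counts. Per the file header, the counting ignored strand and dropped reads with more than 1 mapping or more than 1 overlapping gene. Symbols from GENCODE mouse release 39 matched 54749 of 55416 genes, and 667 had no match. Another 4 library columns of the table belong to no analysed sample and were not used.

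A gene entered a fit where its normalized count averaged more than 10. TMM-scaled counts were tested by quasi-likelihood (glmQLFit, glmQLFTest) in edgeR 4.0.16 under R 4.3.3, with Benjamini-Hochberg adjustment over all genes tested and a threshold of 0.05. WT stages were compared in the WT libraries alone. The change of stage in KO or Het and the interactions were fitted with the WT libraries, and genotypes were compared within a stage, without covariates. RPKM are TMM-scaled counts per kilobase of the table's exon length, on the CPM scale. Alternatives were DESeq2 1.42.0, other scalings and filters, sex, embryo as a block, all 16 libraries in the fit, and each embryo left out. The fit without WT embryos 0 and 8 was added after the data were seen. Scripts were tested on simulated data.

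The genes and lists were chosen with earlier results of these data known. Named genes were the called genes with the largest changes and no overlap between stages (up to 8 in each direction), the 5 with the smallest p in each direction in each genotype comparison, the 5 highest and lowest levels, and 7 genes named for their roles. Of the lists, the 3 genes with the smallest p were named, and a few others, such as *Tfam*, *Dap3* and *Nrf1*, for their roles and after their values were seen. Same-numbered libraries of both stages come from 1 animal, which pairs them. Over 13402 genes, how far each departed from its group mean correlated between stages at 0.05, 0.28, 0.40 and 0.41 for WT embryos 0, 1, 5 and 8, 0.07 for the Het pair and 0.53 for the KO pair. Total counts are given as ranges with the results.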

Additional observations from a re-analysis of the deposited data

Results flagged for a closer look

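*Mrpl4* had 68.1 CPM in the S1 library of WT embryo 8, against 97.6 to 103 CPM in the other WT libraries of the stage, and this gap was large for the range of 4 libraries by Dixon's limit. Of 154 groups of 4 WT libraries examined over the 77 genes and both stages, 7 passed this limit, each with embryo 8 the lowest at S1. Chance gives about 1 in 20 groups, and the genes share the same libraries.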

How the results depend on the processing

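The comparison of stages depended most on the scaling. With total count scaling, the medians were −1.46 in WT, −1.27 in KO and −1.46 in Het, with 73, 66 and 68 genes lower and 0 higher in each, against 63.1%, 53% and 55.5% lower and 13.8%, 11.9% and 14.1% higher among all genes, and the ratio of summed WT levels was 0.388. *Mrpl14* was then at −0.059, *Mrpl4* at −0.51, *Mrps18c* at −0.14, *Mrps36* at −0.91 and *Mrpl58* at −0.92. In KO over WT at S3 it put *Mrpl4* at 0.018, *Mrpl43* at 0.021, *Mrps31* at 0.010 and *Mrpl55* at 0.023. With upper-quartile scaling, 1, 0 and 1 genes were higher in WT, KO and Het (26.6%, 21.2% and 26% of all genes), *Mrpl14* was the 1 that kept its call in WT, and *Mrps36* was at −0.083 and *Mrpl58* at −0.092. With the filter of filterByExpr, 0 genes were higher in KO (22% of all genes). With the embryo as a replicate block, pairing the stages, 5 genes were higher in KO and 5 in Het (27.8% and 30.7% of all genes), and *Mrps18a* was called lower in WT. No other gene named by the rule for WT or for the interactions changed its call there. Single genes were not followed in this fit for the change of stage in KO or Het. With sex as a covariate, 1 gene (edgeR) or 3 genes (DESeq2) were higher in KO at S3. Without WT embryos 0 and 8, 8, 3 and 8 genes were higher in WT, KO and Het and 43 lower in Het (28.9%, 27.2% and 33.1% of all genes higher and 36.6% lower in Het), and *Mrpl1*, *Mrpl45* and *Mrpl16* were at −0.010, −0.024 and −0.059 in KO over WT at S1. The cause was not tested.

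Leaving out 1 embryo at a time gave 1 to 5 genes higher in WT, 0 to 3 in KO and 0 to 7 in Het, and 26 to 38, 10 to 27 and 15 to 35 lower. Over all genes, these fits called 25.3 to 31.7%, 16.1 to 27.3% and 18.1 to 32.2% higher and 29.4 to 33.7%, 16.8 to 30.4% and 20.4 to 34% lower. Of genes named without a call, the log2 fold changes in KO over WT at S1 ran from −0.31 to 0.12 for *Mrps17*, −0.024 to 0.39 for *Mrpl44*, −0.056 to 0.34 for *Mrpl45*, −0.011 to 0.30 for *Mrpl16*, −0.29 to 0.037 for *Mrps2* and −0.14 to 0.035 for *Mrps5*. At S3 they ran from −0.26 to 0.10 for *Mrps31*, −0.30 to 0.16 for *Mrpl55*, −0.53 to 0.026 for *Mrpl42* and −0.19 to 0.058 for *Mrpl4*. In Het over WT at S3 they ran from −0.21 to 0.11 for *Mrpl1*, −0.24 to 0.11 for *Mrps6*, −0.15 to 0.078 for *Mrps27* and −0.10 to 0.13 for *Mrpl24*. The Het interaction ran from −0.065 to 0.25 for *Mrpl14*, −0.075 to 0.31 for *Mrps24* and −0.034 to 0.18 for *Mrpl43*. Over the alternatives other than leaving out 1 embryo, 682 values of named genes kept their direction and side of the threshold, 14 changed direction, 7 gained a call and 2 lost one. The spread within a group of 2 embryos is poorly known.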
